A study of Mus musculus with 4 samples.

Results

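The tissue inhibitors of metalloproteinases form a family of 4 genes in the mouse, Timp1 (ENSMUSG00000001131), Timp2 (ENSMUSG00000017466), Timp3 (ENSMUSG00000020044) and Timp4 (ENSMUSG00000030317), and were followed by cell class and day in the carotid artery after wire injury. They were taken by symbol and are 4 of the 31053 genes that the matrices list. All 4 had UMIs (unique molecular identifiers, which mark single captured RNA molecules) on every day. The libraries came from the carotid arteries of male C57BL/6 mice aged 11 weeks, with arteries of several animals pooled for a time point. Day 0 stands for vessels taken before injury. Days 3, 7 and 14 stand for left carotids through which a wire had been passed, a procedure that strips the endothelium, and vessels with a visible thrombus were left out. Cells were captured after enzymatic digestion and a dead cell removal step. With a single library behind every day, a day and its library cannot be told apart. No test between days was possible, and all intervals are 95% intervals that cover counting error only.

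TIMP proteins bind in the active site of matrix metalloproteinases (MMPs), the enzymes that cleave collagens, elastin and other matrix proteins, and keep them from acting. Timp1 is secreted, is readily induced by inflammatory signals and growth factors and binds poorly to membrane-type MMPs such as Mmp14. Timp2 blocks Mmp14 but also bridges it to the Mmp2 precursor, a complex in which Mmp2 is activated. Timp3 stays bound to the extracellular matrix and has the broadest reach of the family, which includes the sheddase Adam17 and several ADAMTS aggrecanases. Timp4 has a narrow expression and is best known from the heart. In the artery wall these inhibitors are studied because breakdown of matrix accompanies the movement of medial and adventitial cells after injury.

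The regions just upstream of the transcription starts are shown for Timp1 and Timp3, since these members moved in opposite directions in the fibroblast-like cells on day 3. The sequences are RefSeq windows of 250 bases that end at the base before the start. They are read 5′ to 3′ on the strand of the gene in build GRCm38.p6. Capitals mark the letters AGGAAG (a form of the ETS factor site) and GGGCGG (a GC box) on either strand. Other and shorter forms of the ETS site were not searched. The Timp1 window is chrX:20869916-20870165 (plus strand) and the Timp3 window chr10:86300162-86300411 (plus strand).
Timp1: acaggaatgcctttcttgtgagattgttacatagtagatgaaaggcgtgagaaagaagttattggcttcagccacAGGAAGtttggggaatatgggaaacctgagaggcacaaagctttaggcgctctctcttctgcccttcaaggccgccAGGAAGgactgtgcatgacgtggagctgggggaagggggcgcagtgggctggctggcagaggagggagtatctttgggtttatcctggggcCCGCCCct
Timp3: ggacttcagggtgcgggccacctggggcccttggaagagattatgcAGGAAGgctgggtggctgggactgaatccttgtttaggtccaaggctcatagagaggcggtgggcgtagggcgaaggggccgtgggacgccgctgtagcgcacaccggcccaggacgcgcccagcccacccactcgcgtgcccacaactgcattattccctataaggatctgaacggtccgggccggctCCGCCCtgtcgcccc
The Timp3 window was richer in GC (65.6%, with 18 CpG) than that of Timp1 (54.4%, with 6 CpG), against a median of 52.4% over 32851 windows of 27025 gene symbols. The windows of Timp2 (chr11:118355412-118355661, minus strand) and Timp4 (chr6:115252206-115252455, minus strand) had a GC content of 68% and 53.6%. All 4 members were matched.

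Among the 6 motifs searched on both strands, AGGAAG occurred 2 times in the Timp1 window and 1 time each in those of Timp3 and Timp4, and 29.5% of all windows held it. GGGCGG occurred 1 time each for Timp1, Timp2 and Timp3 and not for Timp4, and 32.7% of all windows held it. In Timp1 and Timp3 this GC box lay on the minus strand, from base 8 to base 3 and from base 15 to base 10 before the start. None of the 4 windows held TGANTCA (AP-1, in 6.75% of windows), TGANTAA (an AP-1 like site, 9.38%), TTCNNNGAA (STAT, 7.02%) or TATAAA (the TATA box, 12.4%), where N is any base. No marked match overlapped another. These matches describe letters in a window and not bound sites.

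Cells were grouped into classes by marker genes, and the names mean resemblance only. Fibroblast-like cells numbered 259, 228, 247 and 561 on days 0, 3, 7 and 14, smooth muscle-like cells 23, 104, 60 and 78, and monocyte/macrophage-like cells 591, 986 and 210 on days 3, 7 and 14. Fibroblast-like cells showed 10 of 10 fibroblast markers at 50 CPM (UMIs per 1000000 UMIs of the class) or more on each day, smooth muscle-like cells 9 or 10 of 10 smooth muscle markers and macrophage-like cells 13 or 14 of 14 of theirs after injury. The 14 cells called macrophage-like on day 0 carried 9 of 11 T cell markers and were not used. Clustering of the cells of the fibroblast-like, endothelial-like and smooth muscle-like classes gave 9 sub-clusters (S0 to S8). The 2 that drew under 80% of their cells from a single class are called mixed, namely S3 (led by Cd93, Cytl1 and Pecam1, median 1077 UMIs per cell) and S6 (led by the acute-phase and mitosis genes Saa3, Lcn2 and Top2a, median 54612 UMIs). The median UMI count of the fibroblast-like class was 6995 on day 0, 1920 on day 3, 15918 on day 7 and 17279 on day 14. S6 held 50 of the 228 fibroblast-like cells of day 3 but 68.8% of their UMIs, and 52 of 247 cells but 41.8% of the UMIs on day 7. Levels are therefore also given without the mixed sub-clusters where both views differ most. In all, 217 barcode sequences occurred in 2 or more libraries. None was removed for this reason. Whether RNA was shared between libraries, and its part in the ratios between days, was not tested.

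Levels are given in CPM, summed over the cells of a class. Timp1 stood at 286 CPM in fibroblast-like cells on day 0 (265 to 309), 3029 on day 3 (2984 to 3075), 1199.8 on day 7 (1173 to 1227) and 263 on day 14 (253 to 274). It was thus high in the day 3 and day 7 libraries and near the day 0 level in the day 14 library. The ratio to day 0 was 10.6 on day 3 (9.78 to 11.5), 4.19 on day 7 (3.87 to 4.55) and 0.919 on day 14 (0.842 to 1.004), an interval that includes 1. Of all genes compared, 98.6% had a lower ratio than Timp1 on day 3. Without the mixed sub-clusters the levels were 278, 1628, 515 and 260 CPM, and the ratio was 5.86 on day 3 and 1.85 on day 7. The mean of the single cells' levels, in which shallow cells weigh as much as deep ones, was 575, 1882, 719.8 and 308.5 CPM, which puts day 14 at 0.536 times day 0. The peak on day 3 thus held in each of these views, while its size ranged from 3.27 to 12.6 times day 0 over all settings tried.

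Timp2 followed the opposite course in the same cells, at 3115 CPM on day 0 (3043 to 3189), 944 on day 3 (919 to 970.0), 1247 on day 7 (1219.8 to 1275) and 1964 on day 14 (1935 to 1993). It was the most abundant member before injury and again on day 14, while on day 7 Timp1, Timp2 and Timp3 all lay between 1160.2 and 1247 CPM. Its ratio to day 0 was 0.303 (0.292 to 0.314), 0.400 (0.388 to 0.414) and 0.631 (0.613 to 0.648) on the 3 days after injury. From day 3 to day 14 the level of Timp2 was 2.08 times as high (2.02 to 2.15). When the mixed sub-clusters were left out, Timp2 stood at 3122, 1394, 1554 and 1974 CPM, in the same order of days. On day 7 Timp1 was then at 515 and Timp3 at 1683 CPM, so that the members no longer lay close together. As a mean over single cells the Timp2 ratio to day 0 was 0.586 on day 3 and 0.432 on day 7. Its lowest day was then day 7 and not day 3.

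Timp3, the matrix-bound member, was at 2776 CPM on day 0 (2708 to 2846), 566 on day 3 (547 to 587), 1160.2 on day 7 (1134 to 1187) and 832 on day 14 (813 to 851). All later days lay below day 0, with ratios of 0.204 (0.195 to 0.213), 0.418 (0.404 to 0.432) and 0.2997 (0.290 to 0.310). Only 2.25% of genes had a lower ratio on day 3 and 1.45% on day 14. Unlike Timp2, whose day 14 level was 1.58 times that of day 7 (1.53 to 1.62), Timp3 on day 14 was 0.717 times its day 7 level (0.694 to 0.741). Leaving out the mixed sub-clusters raised its level on day 3 to 1208 and on day 7 to 1683 CPM, and the ratio to day 0 on day 3 to 0.434, so that day 14 (836 CPM) became the lowest day. The mean over single cells gave 0.662 on day 3 and 0.354 on day 14, so the size of the day 3 difference depended most on how cells were weighted.

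Timp4 was rare throughout. Fibroblast-like cells had 67 Timp4 UMIs on day 0 (29.8 CPM, 23.1 to 37.9) and 5, 1 and 15 UMIs on days 3, 7 and 14 (0.901, 0.160 and 1.67 CPM). The intervals after injury did not reach that of day 0, and the ratios were 0.0302 (0.00950 to 0.0740), 0.00535 (0.000133 to 0.0308) and 0.0558 (0.0296 to 0.0987). Outside the mixed sub-clusters these levels were 29.9, 2.91, 0.275 and 1.69 CPM on the same UMIs, and the day 3 ratio was 0.0973 (0.0306 to 0.239). As a mean over cells the day 3 ratio was 0.507, on the 5 UMIs, so its size is not settled by these counts. All 4 members had at least 20 UMIs over each of these comparisons with day 0. By a 2-fold limit Timp1 was higher and Timp2, Timp3 and Timp4 were lower on day 3 and on day 7, and Timp3 and Timp4 were lower on day 14. Leaving out S3 and S6, Timp1 and Timp3 no longer passed it on day 7, which left none higher and 2 lower, while the calls of day 3 (1 higher, 3 lower) and day 14 stayed at these counts. In those cells the limit was passed upwards by 6.2% of all genes and downwards by 8.43% on day 3, by 8.86% and 7.66% on day 7 and by 9.31% and 4.56% on day 14. With all cells of the class it was passed upwards by 11.5% of all genes and downwards by 10.6% on day 3, by 13.5% and 8.68% on day 7 and by 9.56% and 4.66% on day 14. The 3 comparisons share the day 0 library.

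**Figure D1:**
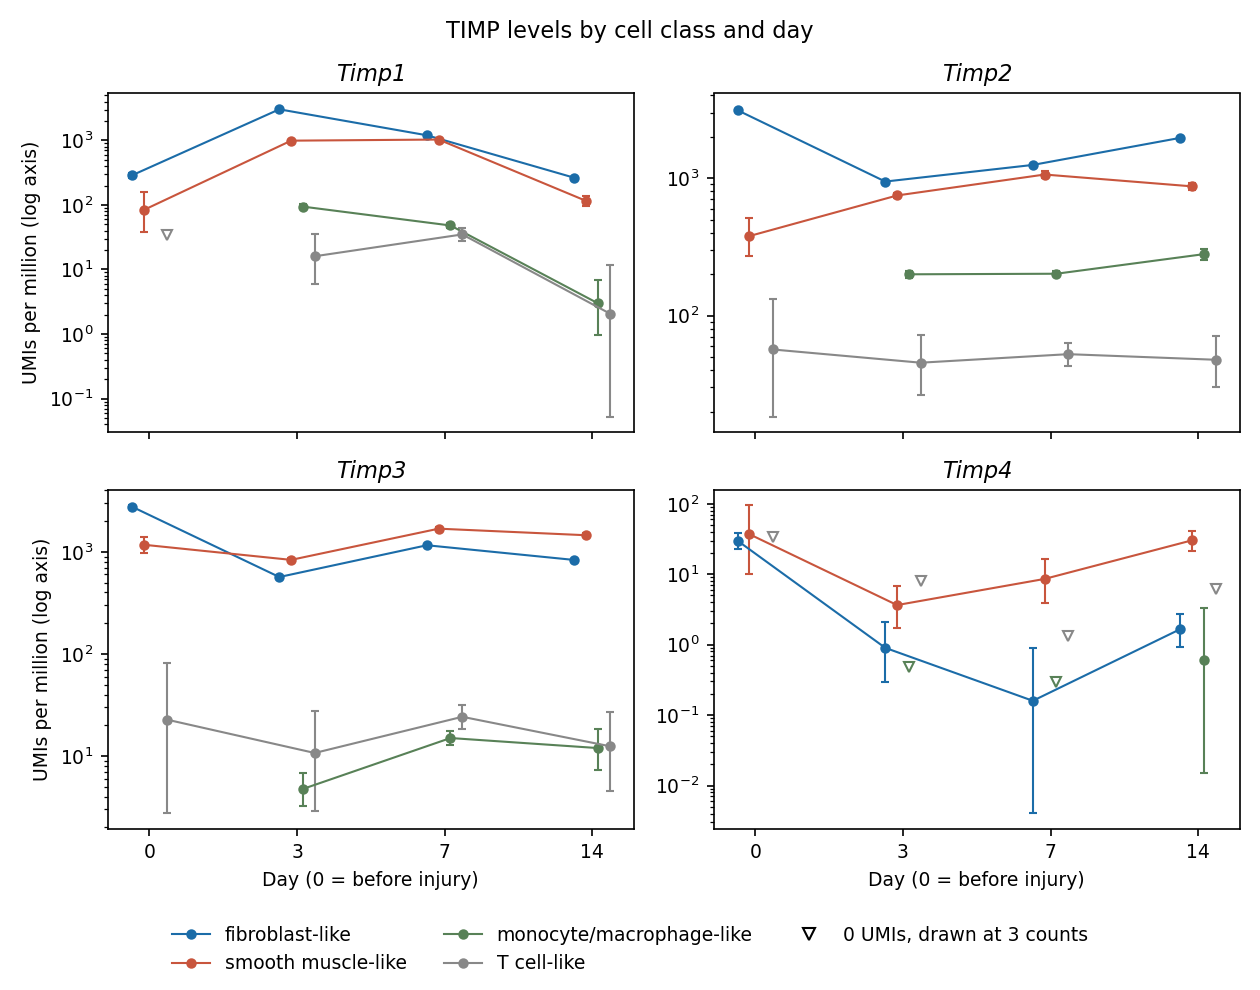
Level of each TIMP gene in CPM (log axis) on days 0, 3, 7 and 14 (drawn evenly spaced) in 4 cell classes. Points are sums over the cells of a class, bars are 95% exact Poisson intervals and open triangles stand for 0 UMIs, drawn at 3 counts. In the fibroblast-like sums Timp1 peaks on day 3 at 3029 CPM, where Timp2 (944) and Timp3 (566) are at their lowest; without the mixed sub-clusters Timp3 is lowest on day 14 (836).

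The make-up of the family shifted together with its sum. A 3′ kit gives about 1 UMI per captured molecule whatever the length of the transcript, so UMIs of the 4 genes were added without scaling by length. The sum in fibroblast-like cells was 6208 CPM on day 0, 4541 on day 3, 3607 on day 7 and 3061 on day 14. Timp1 made up 4.61% of it before injury, 66.7% on day 3, 33.3% on day 7 and 8.60% on day 14. Timp2 and Timp3 together accounted for nearly all of the remainder, with Timp2 at 50.2%, 20.8%, 34.6% and 64.2% and Timp3 at 44.7%, 12.5%, 32.2% and 27.2%. The day 14 make-up was not that of day 0, since Timp1 was near its earlier level while Timp3 was not. Without the mixed sub-clusters Timp1 contributed 38.5% on day 3 and 13.7% on day 7, still above 4.48% on day 0.

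**Figure D2:**
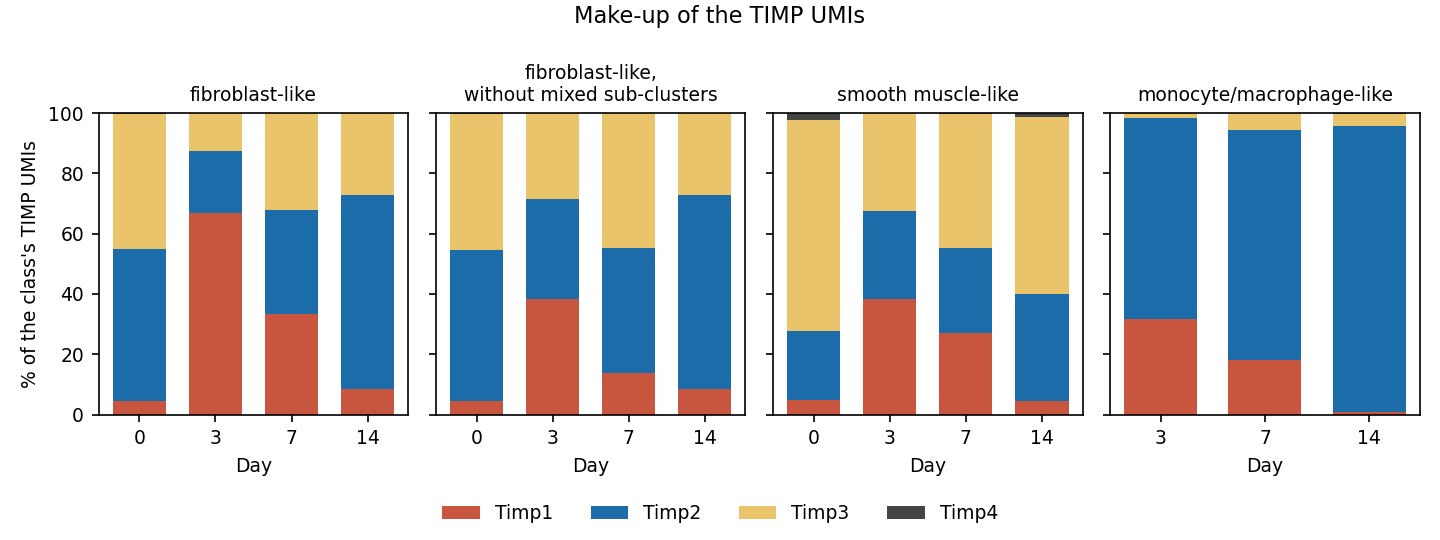
Percent of a class's TIMP UMIs that each gene contributed, by day, in fibroblast-like cells with and without the mixed sub-clusters, in smooth muscle-like cells and in monocyte/macrophage-like cells. Timp1 takes 66.7% of the fibroblast-like bar on day 3 (38.5% without the mixed sub-clusters), Timp3 is the widest band of the smooth muscle-like bars of days 0, 7 and 14, and Timp2 that of the macrophage-like bars of days 3, 7 and 14. Without the mixed sub-clusters (not drawn) Timp3 was also the largest part in smooth muscle-like cells on day 3, at 51.32%.

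Because depth differed between days, the share of fibroblast-like cells with a UMI was taken after each cell was thinned to 1000 UMIs, which left 211, 145, 222 and 505 cells. Timp1 was then seen in 22.3% of cells on day 0 (16.9 to 28.5), 69.7% on day 3 (61.5 to 77.0), 34.7% on day 7 (28.4 to 41.3) and 18.4% on day 14 (15.1 to 22.1). Unthinned, these shares were 67.2%, 65.8%, 75.3% and 77.5%, without the order seen at equal depth. Timp2 was seen in 90.5%, 62.1%, 62.2% and 77.6% of thinned cells (90.7%, 86.0%, 88.7% and 92.9% unthinned) and Timp3 in 77.3%, 40.0%, 48.2% and 42.6% (86.1%, 72.8%, 83% and 82.2%). Shares of cells and summed levels thus put day 0 and day 3 in the same order for each of these 3 genes. Timp4 was seen in 1.90% of thinned cells on day 0 and at most 0.690% later. In T cell-like cells after injury, thinned in the same way, the shares were at most 4.76% for Timp1, 6.35% for Timp2 and 4.42% for Timp3.

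Among cells thinned to 1000 UMIs, the median cell had 0, 2, 0 and 0 Timp1 UMIs on days 0, 3, 7 and 14, and the highest cell 12, 18, 15 and 4. The median cell had 3, 1, 1 and 2 UMIs of Timp2 and 2, 0, 0 and 0 of Timp3. A Timp3 UMI was present in 61.7% of the 47 cells with Timp1 on day 0 against 81.7% of the other cells, and in 34.7% of 101 cells against 52.3% on day 3. On day 7 the shares were 52.0% and 46.2% and on day 14 they were 44.1% and 42.2%. Cells with none of the 4 genes made up 0.474%, 4.14%, 13.5% and 11.3% of the thinned cells on the 4 days. These shares describe cells of a single library each and were not tested.

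The sub-clusters show where within the class each member was carried. Timp1 was highest in S6, at 2720 CPM (2685 to 2755), and next in S7 (led by Saa3, the interferon-induced Isg15 and the lubricin gene Prg4), at 1313 (1267 to 1361), and it was between 148 and 759 in the other 7. Timp2 was highest in S8 (led by Igfbp5, Sema3c and Dpp4), at 3453 (3361 to 3547), and in S0 (led by Rbp4 and C7, a shallow group with a median of 899 UMIs), at 3121 (2978 to 3270.1). Timp3 was highest in S4 (led by Cytl1, Fmod, Rbp4 and Lamc3), at 2852 (2783 to 2923), and reached 1587 in S1 (led by Rgs5, Tnc and Eln). These places moved with the resolution. At 0.3 Timp2 was highest in a shallow group of 357 cells (3308 CPM, median 919 UMIs), and at 0.8 Timp1 was highest in 21 cells with a median of 687 UMIs (4028 CPM). Over all days Timp4 was highest in S4 (29.7 CPM, 67 UMIs) and in the smooth muscle sub-cluster S5 (18.1 CPM, 60 UMIs). It was at most 8.82 CPM in the others. Of the S4 UMIs, 64 came from day 0. On day 14 the order was reversed, with 31.3 CPM in S5 (39 UMIs) and 4.95 in S4 (3 UMIs).

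**Figure D3:**
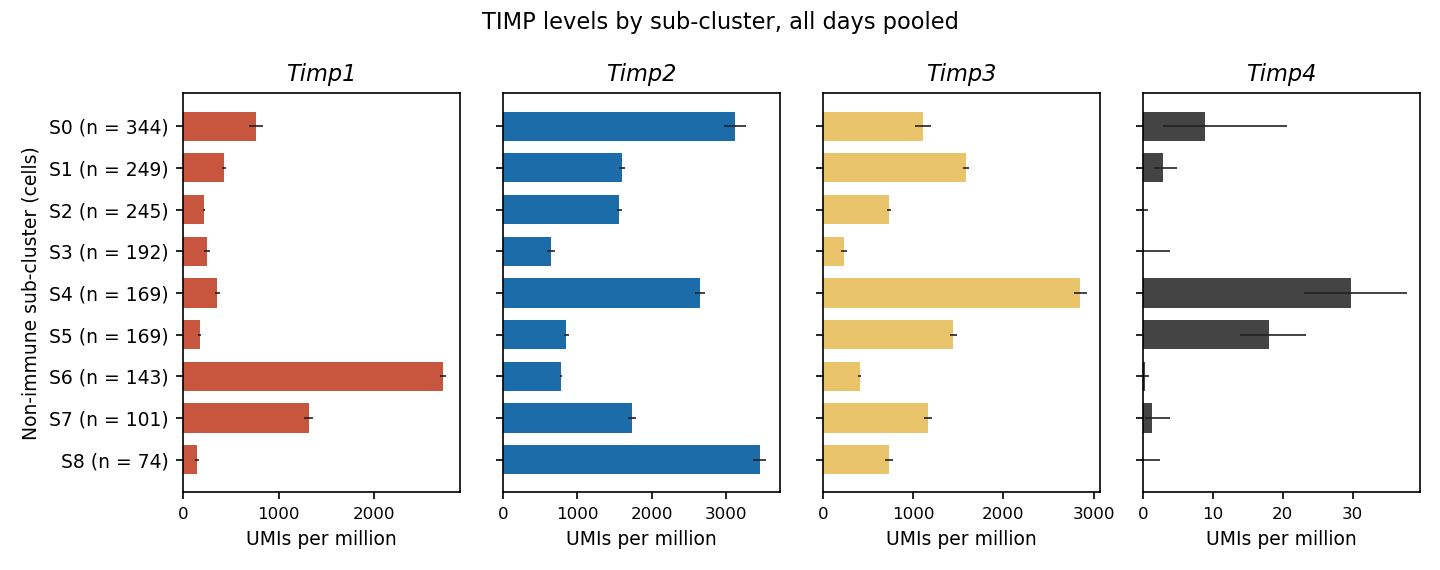
Level of each TIMP gene in CPM (separate linear axes from 0) in the 9 sub-clusters of stromal and endothelial-like cells, all days summed; bars carry 95% exact Poisson intervals and n is the number of cells. Timp1 is highest in S6, Timp2 in S8, Timp3 and Timp4 in S4.

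The sub-clusters were unevenly spread over days, so levels were also compared between days inside them. S4 held 124 fibroblast-like cells and 70.1% of the class's UMIs on day 0, while S2 (led by C1qtnf3 and Thbs4) held 52.4% on day 14. In S0, the sub-cluster with at least 39 cells on every day, Timp1 was at 699.6 CPM on day 0, 1627 on day 3, 603 on day 7 and 489 on day 14. Timp2 in S0 was at 3905, 2540.0, 2001 and 3098 CPM on these days. The day 3 peak of Timp1 and the lower Timp2 after injury were thus also seen inside S0. The higher Timp1 of day 7 was not, since its S0 level lay below that of day 0. Timp3 in S0 did not share the order of the class, at 1359, 2110, 1133 and 484 CPM, with day 3 above day 0.

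Between day 0 and day 14, S4 and S8 had cells in both libraries. In S4 Timp3 was at 3283 CPM on day 0 (124 cells) and 1741 on day 14 (40 cells), and in S8 at 1019 (20 cells) and 669.7 (46 cells). Timp2 differed less, at 2671 and 2568 in S4 and 4634 and 3450.2 in S8. The lower Timp3 on day 14 was therefore seen inside both of them and inside S0. Timp1 in S4 was higher on day 14 (508 against 284 CPM), and in S8 the levels were 110.3 and 101 CPM. In S7 Timp1 went from 1696 CPM on day 3 (55 cells) to 799 on day 7 (19 cells) and 317 on day 14 (18 cells), and in S6 from 3125 on day 3 to 2146 on day 7.

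Other markers moved with these values. In fibroblast-like cells the 10 smooth muscle markers summed to 506, 515, 2058 and 524 CPM on days 0, 3, 7 and 14, and the 14 monocyte/macrophage markers to 44.1, 390.5, 238 and 193. The proliferation list was higher by 2-fold for 10 of 10 genes on day 3 and 9 of 10 on day 7 against day 0, and without S3 and S6 for 3 of the 4 with enough UMIs on day 3 and 2 of 3 on day 7. S6 cells had a median doublet score of 0.0952 among the fibroblast-like cells of day 3. The part of these differences in the TIMP ratios was not tested.

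Smooth muscle-like cells were compared with day 3, since day 0 held 23 of them with a median of 952 UMIs. Timp1 was at 83.2 CPM on day 0 (9 UMIs), 990.1 on day 3 (953 to 1028), 1030.5 on day 7 (970.0 to 1094) and 115 on day 14 (97.4 to 135). Days 3 and 7 did not differ beyond counting error (ratio 1.04, 0.969 to 1.12), and day 14 was at 0.116 times day 3 (0.0979 to 0.137). The values of days 3 and 7 rested largely on S6. It held 21 of the 104 cells and 47.5% of their UMIs on day 3, and 10 of the 60 cells and 37.5% on day 7. Without the mixed sub-clusters Timp1 was at 303, 96.5 and 83.5 CPM on days 3, 7 and 14, and the day 7 ratio was 0.318. In the smooth muscle sub-cluster S5 alone the levels were 303, 96.3 and 82.0.

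Timp3 was the leading member in this class on days 0, 7 and 14, at 1174 CPM on day 0 (979 to 1397), 834 on day 3 (800.1 to 869), 1686 on day 7 (1609 to 1767) and 1454 on day 14 (1389 to 1521). Without the mixed sub-clusters Timp3 also led on day 3, with 51.32% of the TIMP UMIs against 35.65% for Timp2 and 12.72% for Timp1. With all cells of the class Timp3 was higher than in fibroblast-like cells on days 3, 7 and 14, and lower on day 0. Without the mixed sub-clusters its day 3 levels in smooth muscle-like and fibroblast-like cells were 1224 and 1208 CPM. As means over cells the day 3 order was reversed, at 889.5 CPM for Timp3 in smooth muscle-like and 1514 in fibroblast-like cells. The ratio of smooth muscle-like Timp3 to day 3 was 2.02 on day 7 (1.90 to 2.15) and 1.74 on day 14 (1.64 to 1.85). With at most 10% of mitochondrial UMIs per cell the day 7 ratio was 0.985, and without the mixed sub-clusters it was 1.55. Timp3 in S5 was at 1224, 1881 and 1479.8 CPM on days 3, 7 and 14.

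Timp2 in smooth muscle-like cells was at 379 CPM on day 0 (272 to 514), 748 on day 3 (716 to 781), 1062 on day 7 (1000.5 to 1126) and 871 on day 14 (821 to 924). The ratio to day 3 was 1.42 on day 7 (1.32 to 1.53) and 1.17 on day 14 (1.08 to 1.25). In S5 the values of 849.9, 904 and 868.5 CPM lay closer together. Timp4 was at 37.0 CPM on day 0 (4 UMIs), 3.65 on day 3 (10 UMIs), 8.58 on day 7 (9 UMIs) and 30.4 on day 14 (39 UMIs). Day 14 was 8.32 times day 3 (4.08 to 18.7). Without the mixed sub-clusters Timp4 stood at 7.33 on day 3 and 31 on day 14, a ratio of 4.23 (2.07 to 9.50).

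Against day 3, no member was lower by 2-fold on day 7 and 1, Timp3, was higher, among the 3 members with enough UMIs. On day 14 Timp4 was higher and Timp1 lower. With S3 and S6 left out, Timp1 was lower on day 7 (0.318) and Timp3 no longer higher (1.55), and the calls of day 14 stayed at 1 higher and 1 lower. In those cells 6.09% of all genes were higher and 4.96% lower on day 7, and 4.42% and 3.73% on day 14. The Timp3 ratio of day 7 was 1.02 both without doublet removal and with the libraries clustered separately. Of all genes in all cells of the class, 6.14% were higher and 5.82% lower by 2-fold on day 7, and 5.81% higher and 9.59% lower on day 14. At equal depth Timp3 was seen in 36.4%, 44.4%, 69.0% and 70.8% of smooth muscle-like cells on days 0, 3, 7 and 14 (11, 90, 58 and 72 cells) and Timp1 in 9.09%, 36.7%, 17.2% and 5.56%. Fibroblast markers summed to 4530.4, 8943, 13333 and 10121 CPM in the class, and their part in the Timp2 and Timp3 levels was not tested.

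**Figure D4:**
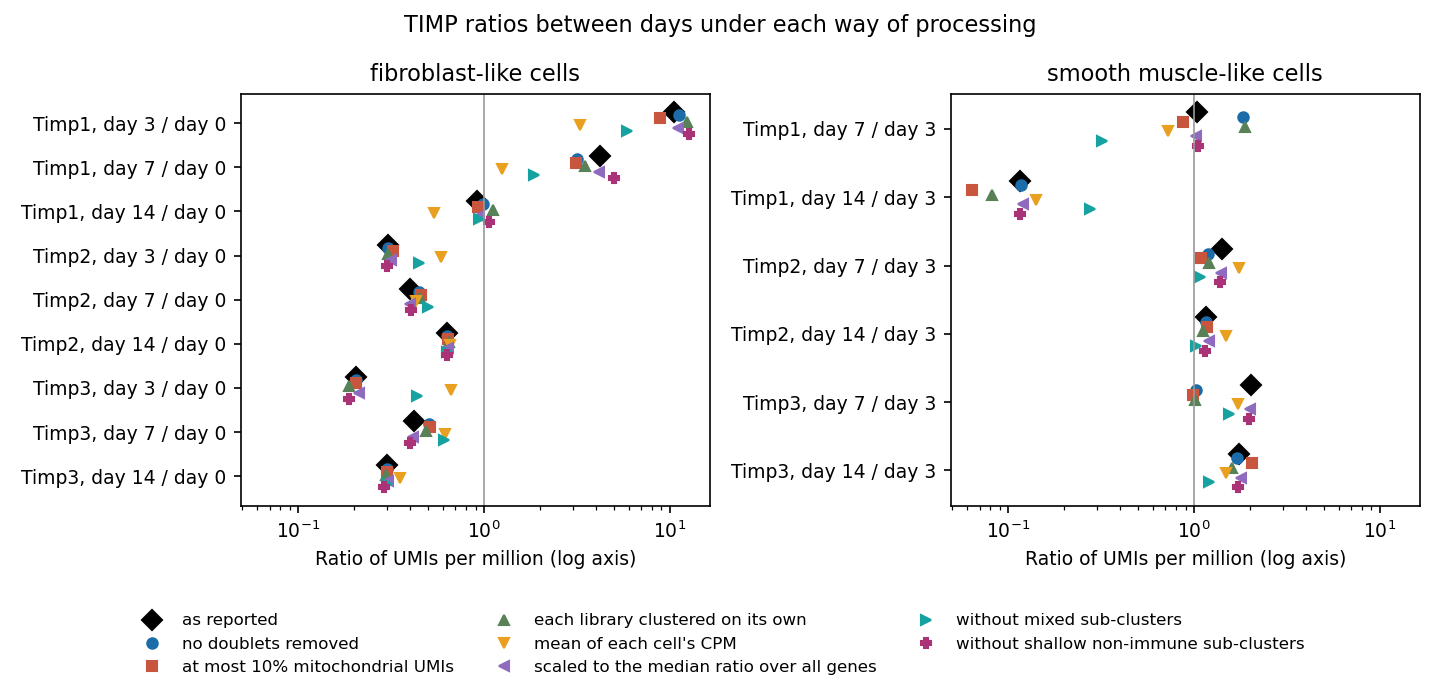
Ratio of CPM between days (log axis) for Timp1, Timp2 and Timp3 in fibroblast-like cells (against day 0) and smooth muscle-like cells (against day 3); the black diamond is the reported value and the other symbols the alternatives. In fibroblast-like cells the symbols of Timp1 on day 3 lie between 3.27 and 12.6 and those of Timp3 on day 14 between 0.290 and 0.354; in smooth muscle-like cells those of Timp1 on day 7 lie on both sides of 1, from 0.318 to 1.88.

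Monocyte/macrophage-like cells carried Timp2 on each day after injury and Timp1 on day 3 above the summed level seen in T cell-like cells, which served as the measure of what free RNA gives. Timp1 in monocyte/macrophage-like cells was at 94.2 CPM on day 3 (86.8 to 102), 48.1 on day 7 (43.9 to 52.5) and 2.99 on day 14 (0.969 to 6.97), against 16.0, 34.9 and 2.08 in T cell-like cells. The ratio to day 3 was 0.510 on day 7 (0.452 to 0.576) and 0.0317 on day 14 (0.0103 to 0.0744), where clustering by library gave 0.126 (0.0810 to 0.188) and the mean over cells 0.109. At equal depth Timp1 was seen in 7.67%, 5.70% and 0.578% of macrophage-like cells and in 4.76%, 3.87% and 0% of T cell-like cells. The intervals of these shares overlapped on each day. At 2000 UMIs per cell those of day 3 did not, with 12.7% (9.99 to 15.8) of macrophage-like and 1.70% (0.0429 to 9.09) of T cell-like cells. The T cell-like shares rested on 6 Timp1 UMIs before thinning and on a single random draw at each depth, so this difference in overlap is not settled. The summed levels gave ratios to T cell-like cells of 5.88 on day 3 (2.68 to 16.1) and 1.38 on day 7 (1.08 to 1.77). On day 7 the level was no higher than in neutrophil-like cells (49.1 CPM, ratio 0.979, 0.613 to 1.67), so no excess over background is read there. Before thinning, the median depths were 8134, 9226 and 6657 UMIs in macrophage-like and 5479, 5477 and 4888 in T cell-like cells. The Timp1 level on day 14 was that of the background.

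Timp2 in macrophage-like cells was at 199.7 CPM on day 3 (189 to 211), 202 on day 7 (193 to 211) and 280.0 on day 14 (255 to 307), against 45.4, 52.4 and 47.7 in T cell-like cells. Its ratio to day 3 was 1.01 on day 7 (0.941 to 1.08) and 1.40 on day 14 (1.26 to 1.56), or 2.39 as a mean over cells. Clusters of the class differed in level. Over all days a cluster of 456 cells held 1755 of the 3818 Timp2 UMIs (326 CPM), and the largest cluster (515 cells) had 324 (70.9 CPM). After thinning, 12.5%, 13.4% and 24.9% of macrophage-like cells had a Timp2 UMI, against 6.35%, 5.53% and 4.49% of T cell-like cells, with intervals that overlapped on day 3 but not on days 7 and 14. At 2000 UMIs per cell they did not overlap on day 3 either (26.3%, 22.6 to 30.2, against 10.2%, 3.82 to 20.8). Timp3 was at 4.75, 15.0 and 11.9 CPM in macrophage-like cells, at or below the T cell-like values of 10.7, 24.2 and 12.5 and thus within background. Timp4 had 1 UMI in these 3 libraries together, in the day 14 cells. By the 2-fold limit against day 3, Timp1 was lower on day 14. Timp3 also passed the limit but lay within background, so nothing is read from it. Of all genes, 6.22% were higher and 3.66% lower on day 7, and 6.62% higher and 7.88% lower on day 14. The erythroid markers summed to 533 CPM in the day 3 cells, and their part in these values was not tested. Over all genes the median log2 ratio of the class was -0.11 on day 7 and -0.10 on day 14.

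Across the named classes of day 3 with 40 cells or more the order of Timp1 was fibroblast-like (3029 CPM), smooth muscle-like (990.1), endothelial-like (219), dendritic-like (114, 97.2 to 134), macrophage-like (94.2), neutrophil-like (46.03), NK cell-like (25.4) and T cell-like (16.0). Dendritic-like cells were above macrophage-like cells by 1.21 times (1.01 to 1.45). The intervals of neighbours in this order included 1 for neutrophil-like against NK cell-like cells (1.82, 0.785 to 4.89) and NK cell-like against T cell-like cells (1.58, 0.455 to 5.69). Dendritic-like cells of day 3 had 158 Timp1 UMIs but 10.1 Timp2 and 1.45 Timp3 CPM, so that Timp1 was the one member they carried above the T cell-like level. A single cluster of 60 cells held 173 of the 207 Timp1 UMIs of dendritic-like cells over all days (159 CPM, 136 to 185), and the largest cluster of the class (91 cells) had 8 (8.81 CPM). On day 7 their Timp1 was at 42.9 CPM (31.7 to 56.7). Neutrophil-like cells had 116 and 98.2 Timp2 CPM on days 3 and 7, between the macrophage-like and T cell-like levels.

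Endothelial-like cells were few, with 7, 40, 55 and 24 cells on days 0, 3, 7 and 14. Timp2 was at 1411 CPM on day 0 (884 to 2136, 22 UMIs), 498 on day 3 (405 to 605), 637 on day 7 (581 to 697) and 391 on day 14 (242 to 598), above Timp1 and Timp3 beyond counting error on days 3 and 7. Timp1 had no UMI on day 0, which allows up to 192 CPM by a floor of 3 counts and 236.5 by the exact 95% limit, and was at 219 (159 to 294), 126 (102 to 154) and 336 (199 to 530.2) later. Timp3 was at 1090.1 CPM on day 0, 129 on day 3, 132 on day 7 and 596 on day 14. The day 14 level was 4.61 times that of day 3 (2.66 to 8.06), on 32 and 26 UMIs, where the median log2 ratio over all genes was -0.35. A single S6 cell held 38.7% of the class's UMIs on day 3 and 37.7% on day 14, and the cells of that day carried 9 of 14 monocyte/macrophage markers, at a summed 4380 CPM, whose part in the value was not tested. Timp4 had no UMI in any of the 126 endothelial-like cells.

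Shifts in the cell classes and in level per cell both enter the total of a library. Fibroblast-like cells held 90.7%, 81.2%, 77.7% and 90.7% of the Timp1 UMIs of days 0, 3, 7 and 14, although they were 78.7%, 15.1%, 9.17% and 51.4% of the cells. Their share of all UMIs was 84.8%, 30.5%, 23.7% and 68.9%. They held 98.7%, 59.5%, 65.2% and 91.2% of Timp2 and 97.6%, 57.0%, 76.1% and 79.3% of Timp3. Smooth muscle-like cells were the next source of Timp3, with 1.99%, 41.5%, 18.5% and 19.8%. Macrophage-like cells held 14.3% and 17.3% of Timp2 on days 3 and 7, below their 34.7% and 38.9% of all UMIs. Timp4 was found mostly in fibroblast-like cells on day 0 (94.4% of 71 UMIs). Smooth muscle-like cells held 66.7% of 15 UMIs on day 3 (38.4 to 88.2), 90% of 10 on day 7 (55.5 to 99.8) and 69.6% of 56 on day 14 (55.9 to 81.2). Whether they held most of it on day 3 is not settled by these counts. Over all kept cells of a library, Timp1 stood at 268, 1137, 366 and 200 CPM, Timp2 at 2674, 483, 454 and 1484 and Timp3 at 2411, 303, 362 and 723.

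**Figure D5:**
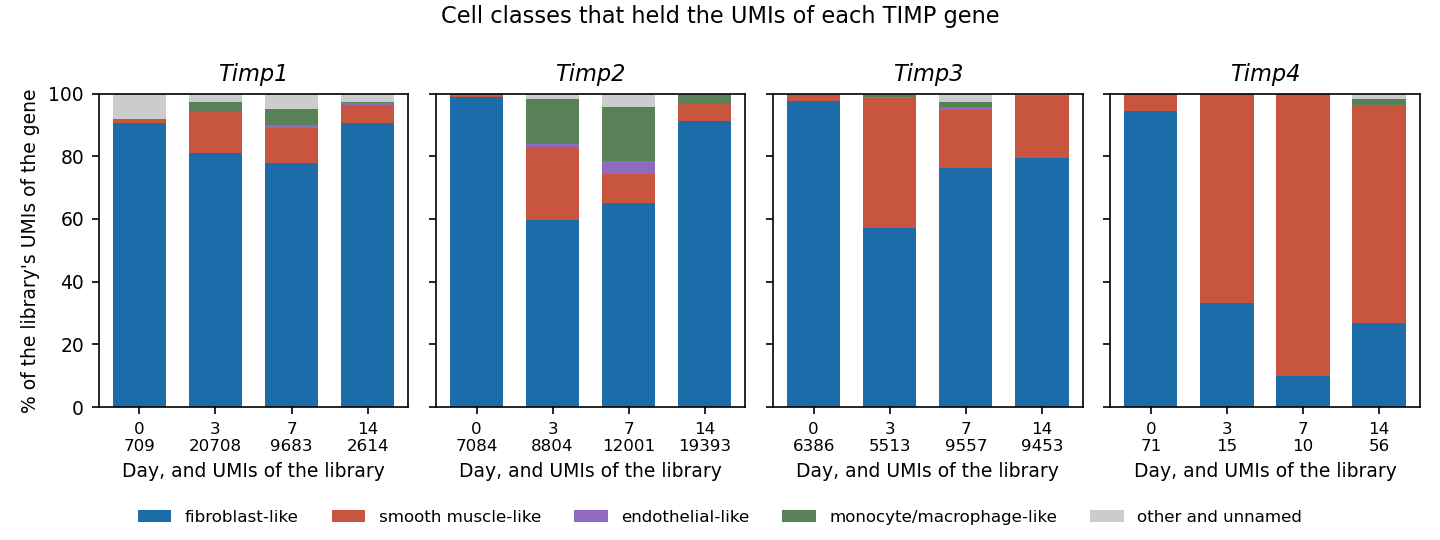
Percent of a library's UMIs of each TIMP gene held by each cell class, by day, with the number of UMIs of the gene below the day. Fibroblast-like cells hold 77.7% or more of Timp1 on every day. Smooth muscle-like cells hold the largest part of the few Timp4 UMIs from day 3 on, on day 3 with an interval of 38.4% to 88.2%.

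The proteases that TIMPs inhibit were read from lists of 23 MMP (22 of them listed in the matrices), 9 ADAM and 19 ADAMTS genes, over those with at least 20 UMIs in a comparison. These counts stand beside the shares of all genes past 2-fold given above, with or without S3 and S6. Against day 0, fibroblast-like cells had 5 of 10 such MMP genes higher by 2-fold and 2 lower on day 3, 3 of 10 higher and 1 lower on day 7, and 3 of 9 higher and none lower on day 14. When S3 and S6 were left out, 2 of 8 were higher and 1 lower on day 3, 2 of 8 and 2 of 8 on day 7, and 3 of 9 and none on day 14, where 6.2%, 8.86% and 9.31% of all genes were higher. With all cells their median log2 ratio was 0.43, 0.04 and 0.13, while the median over all genes lay within 0.08 of 0. Mmp14, the membrane-type enzyme that Timp1 inhibits poorly, went from 77.5 CPM on day 0 to 334.5, 456 and 373 on days 3, 7 and 14, with ratios of 4.32 (3.69 to 5.07), 5.89 (5.05 to 6.90) and 4.81 (4.13 to 5.64). Mmp3, stromelysin, stood at 629, 1661, 379.6 and 506 CPM and was thus above day 0 on day 3 and below it afterwards. Without S3 and S6 Mmp3 was at 947 CPM on day 3 and Mmp14 at 304. Mmp2, the gelatinase that Mmp14 and Timp2 activate together, was at 547, 628, 770.0 and 1266 CPM and was highest on day 14 (ratio 2.31, 2.18 to 2.46). Without S3 and S6 Mmp2 was at 876 CPM on day 3 and 943 on day 7, still below day 14. Mmp19 was at 21.8, 70.6, 38.1 and 33.1 CPM.

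Set against their targets, fibroblast-like cells had 3.30 TIMP UMIs for each MMP UMI on day 0 (3.18 to 3.41), 1.51 on day 3 (1.49 to 1.54), 1.76 on day 7 (1.72 to 1.80) and 1.18 on day 14 (1.16 to 1.20). This count of transcripts was lower on each day after injury than before it, and lowest on day 14. Without the mixed sub-clusters it was 3.30, 1.65, 1.73 and 1.18. In smooth muscle-like cells it lay between 5.24 and 6.58 on the 4 days, above fibroblast-like cells on each. Smooth muscle-like cells had 48.9 Mmp2 CPM on day 3, 154 on day 7 and 161 on day 14, and 109, 109 and 59.2 for Mmp14. Left without S3 and S6, the Mmp2 levels were 33.0, 59.1 and 158 and those of Mmp14 56.4, 70.02 and 56.4. Mmp3 reached 200.2 CPM in the smooth muscle-like cells of day 7, and 3.11 without the mixed sub-clusters.

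Among the ADAM sheddases, a family that Timp3 inhibits in part, 3 of 7 genes were higher and 1 lower by 2-fold in fibroblast-like cells on day 3 and on day 7, and 2 higher and none lower on day 14. The median log2 ratio was 0.64, 0.75 and 0.47. With S3 and S6 left out, 3 of 7 were higher and none lower on day 3. The counts were 3 and 1 on day 7, and 2 and none on day 14. Adam12 had 2 UMIs on day 0 (0.891 CPM) and was at 98.6, 70.01 and 24.9 CPM later, so that its ratio on day 3 was 111 with an interval of 30.5 to 916. Adam19 was at 4.90, 65.6, 59.3 and 43.7 CPM. In cells outside S3 and S6 Adam12 was at 49.5, 47.3 and 23.9 CPM and Adam19 at 42.5, 40.9 and 43.3 on days 3, 7 and 14, with a day 3 ratio for Adam12 of 55.4 (14.9 to 465). Adam9 was at 55.2, 149.9, 137 and 76.4 and Adam10, a sheddase of adhesion molecules, at 31.2, 44.5, 41.3 and 29.5. In smooth muscle-like cells 1 of 7 was lower on day 7 against day 3, and 3 were lower and 1 higher on day 14, where leaving out S3 and S6 gave 1 lower and none higher.

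Of the ADAMTS genes, which cleave proteoglycans and process procollagens, 5 of 13 were higher and 1 lower on day 3 in fibroblast-like cells, and 5 of 15 and 1 of 15 on days 7 and 14. With the mixed sub-clusters left out, 3 of 11 were higher on day 3 and none lower, 3 of 13 and none on day 7, and 5 of 15 and 1 of 15 on day 14, against 6.2%, 8.86% and 9.31% of all genes higher in those cells. The median log2 ratio over all cells of the class was 0.49, 0.42 and 0.46 on days 3, 7 and 14. Adamts5, an aggrecanase that Timp3 inhibits, stood at 271, 346, 130.1 and 349.5 CPM, and at 178 on day 3 without S3 and S6, below day 0 and not above it. Adamts2, a procollagen N-proteinase, stood at 548, 289.8, 539.5 and 639, lowest on day 3. Adamts15 and Adamts10 stayed between 42.3 and 107 CPM, or between 48.6 and 149.5 without S3 and S6.

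Partners of TIMP proteins were read in the same way. Cd44, a receptor of hyaluronan that can hold MMPs at the surface, was at 39.2 CPM in fibroblast-like cells on day 0 and 254, 133.5 and 59.0 later, with day 3 at 6.49 times day 0 (5.23 to 8.14); outside S3 and S6 the day 3 level was 136 and the ratio 3.55. Reck, a membrane-anchored inhibitor of MMPs, was at 87.7, 20.0, 40.7 and 39.0 CPM, with a day 3 ratio of 0.228 (0.179 to 0.289), and of 0.384 (0.281 to 0.517) outside S3 and S6. Lrp1, the endocytic receptor that clears TIMP and MMP complexes, was at 1024, 750.2, 649.7 and 669, and Efemp1, a binding partner of Timp3, at 218, 231, 52.6 and 162. In all, 1 of 6 partners was higher and 1 lower on day 3, near the 11.5% and 10.6% of all genes, 1 and 2 on day 7 (1 and 1 without S3 and S6, where Reck was at 0.647 times day 0), and none and 1 on day 14, with median log2 ratios of 0.11, -0.37 and -0.18.

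Inhibitors of other protease classes gave a comparison for the family. In fibroblast-like cells 3 of 11 were higher and 6 lower on day 3, 4 and 4 on day 7, and 2 of 10 higher and 2 lower on day 14, with median log2 ratios of -1.56, 0.01 and -0.14. Without S3 and S6 the counts on day 3 were 1 of 8 higher and 4 lower, and those of day 7 were 2 of 10 and 4 of 10, against 8.43% and 7.66% of all genes lower in those cells. Cst3, the cysteine protease inhibitor cystatin C, was at 17062 CPM on day 0 and 1952, 4089 and 7481 later. Pi16, a marker of adventitial fibroblasts, was at 3025, 419, 623 and 1375, and Serpine2, the protease nexin, at 44.5, 12.4, 102 and 86.4. In the summed levels Cst3 and Pi16 were thus lowest on day 3, as Timp2 was. Without S3 and S6 Cst3 and Pi16 stood at 4230 and 935 CPM that day. In smooth muscle-like cells Serpine2 was at 577, 1160.2 and 1339.5 CPM on days 3, 7 and 14, and at 869.7, 1388 and 1346 without the mixed sub-clusters.

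The genes most like each member over 25 class and day units of at least 20 cells were found by Pearson's r of log2 levels with 10 CPM added, among 7801 genes. They were Cxcl12 (0.90), Loxl2 (0.90), Slc39a1 (0.87), P4hb (0.87) and Hdlbp (0.86) for Timp1 and Kdelc2 (0.93), Bsg (0.93), Wipi1 (0.93), Laptm4a (0.92) and Cd81 (0.92) for Timp2. Timp3 had the closest companions, Bgn (0.98), Igfbp7 (0.98), Pdgfrb (0.98), Lamb2 (0.97) and Aebp1 (0.97). Timp4 was followed by Heyl (0.90), Kcnip4 (0.89), Mettl24 (0.89), Tub (0.88) and Ntrk3 (0.88), on few UMIs. Within the family r was highest between Timp2 and Timp3 (0.86) and lowest between Timp1 and Timp4 (0.23). Units of a day share a library and units of a class share a cell type, so these values are descriptions.

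Synapsin genes surround 3 of the members. In the GENCODE vM39 annotation Timp1 lies within Syn1, Timp3 within Syn3 and Timp4 within Syn2, each on the opposite strand, and Timp2 overlaps Cep295nl on the same strand. The strand setting of the counting is not given in the sources used here. Over all barcodes Syn1 had 2, 104, 68 and 24 UMIs on days 0, 3, 7 and 14 against 713, 21032, 10054 and 2638 for Timp1, and Syn2 had 0, 4, 7 and 8 against 72, 17, 14 and 59 for Timp4. Syn3 had 185, 103, 130 and 242 UMIs against 6411, 5762, 10204 and 9695 for Timp3. In fibroblast-like cells Syn3 was at 78.8, 9.73, 15.5 and 20.0 CPM, highest on day 0 like Timp3, and without S3 and S6 at 79.0, 21.5, 24.2 and 20.1. Cep295nl had 11, 40, 42 and 39 UMIs against 7112, 9056, 12764 and 19591 for Timp2. The counts of Syn1, Syn3 and Cep295nl were small beside those of the members, while Syn2 reached 7 UMIs against 14 for Timp4 on day 7.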

How the data were processed

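Single-cell libraries of mouse carotid arteries were analysed, 1 each for days 0, 3, 7 and 14. The deposited values are unnormalized UMI counts of genes by barcode, which the authors made with Cell Ranger. The matrix header gives version 3.0.2, and the processing notes name the build GRCh38, a human one, so no coordinates were taken from the files. Barcodes needed at least 200 genes and at most 20% of mitochondrial UMIs, which 453 of 6161 did not meet. Scrublet's own limit marked 17 doublets. The highest scores were removed instead, at 0.8% per 1000 barcodes (106 barcodes, 19 of which also failed the limits above), and 5621 cells were kept (329, 1508, 2693 and 1091 by day, and 5688, 4818, 6317 and 9481 UMIs in the median cell). In total the libraries held 2672722, 18989081, 27973418 and 13329564 UMIs.

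The libraries were clustered jointly in scanpy 1.11.5 (log values after scaling to 10000, 2000 variable genes, 30 components, 15 neighbours, Leiden resolution 1, and 0.5 for sub-clusters; leidenalg 0.10.2, scikit-learn 1.9.0, scipy 1.17.1). TIMP and pathway genes were left out of the variable genes. A class name needed 3 markers. After the data had been seen this was tightened, with unnamed clusters of 60 cells or more split again and shallow ones needing 2 leading markers, and 739 cells (13.2%) stayed unnamed. The authors' cell annotation was not used. Levels have exact Poisson intervals, shares Clopper-Pearson intervals and ratios exact conditional binomial intervals. The ratio intervals were checked on simulated Poisson counts, which hold no spread between cells or animals, so the check covers counting error only. A floor of 3 counts stands for 0. Genes with at least 20 UMIs over both sums gave the share of genes past 2-fold.

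The members, markers and lists were chosen with earlier results of these data known. From each pathway list up to 4 genes with at least 50 CPM in 1 day of fibroblast-like or smooth muscle-like cells and the largest fold between days were named, and for each member the 5 genes with the highest correlation. A gene that this rule named is not reported here. Alternatives were no doublet removal, at most 10% of mitochondrial UMIs, clustering by library, means over cells, scaling to the median ratio, other thinning depths (none, 2000), sub-cluster resolutions of 0.3 and 0.8, and leaving out mixed sub-clusters. Leaving out non-immune sub-clusters with a median under 2000 UMIs was added after seeing the data.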

Additional observations from a re-analysis of the deposited data

Results flagged for a closer look

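The summed levels of Timp2 differed from day 0 in opposite directions in the stromal classes. In smooth muscle-like cells its level on day 3 was 1.97 times that of day 0, while in fibroblast-like cells it was 0.303 times, and on day 14 the ratios were 2.30 and 0.631. For Timp3 on day 14 the ratios to day 0 were 1.24 in smooth muscle-like and 0.2997 in fibroblast-like cells. The difference between the classes was not tested in any of these cases, and the smooth muscle-like values of day 0 rested on 23 cells, with 41 Timp2 and 127 Timp3 UMIs. Without the mixed sub-clusters, which held 14 of these 23 cells, Timp2 in smooth muscle-like cells stood at 353, 849.9 and 866 CPM on days 0, 3 and 14, and Timp3 at 1296 and 1466 on days 0 and 14. As means over cells, Timp2 in smooth muscle-like cells was at 592.8 CPM on day 0 and 592.7 on day 3, so that the higher level of day 3 was not seen, and Timp3 was at 503 on day 0 and 1329 on day 14.

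Cells that received no class name also carried Timp1. In the 14 unnamed cells of day 0 it stood at 3985 CPM (3018 to 5163), on 57 UMIs, above the 286 CPM of the fibroblast-like cells of that day. Timp1 made up 87.7% of the TIMP UMIs of these cells, whose median was 842.5 UMIs per cell. Of the 14 cells, 13 fell in a cluster of 88 cells over all days led by the haemoglobin genes Hbb-bs and Hba-a1 and by Timp1.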

How the results depend on the processing

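Ratios to day 0 in fibroblast-like cells and to day 3 in smooth muscle-like and macrophage-like cells are given, and the cause of a shift was not tested. With at most 10% of mitochondrial UMIs, Timp3 in smooth muscle-like cells on day 7 turned to 0.985 (day 14: 2.04). The other shifts there were 8.88 (day 3) and 3.14 (day 7) for fibroblast-like Timp1, 0.324 and 0.458 for Timp2 and 0.511 for Timp3 on day 7, and in smooth muscle-like cells 0.872 (day 7) and 0.0639 (day 14) for Timp1 and 1.10 for Timp2 on day 7. With the libraries clustered separately, fibroblast-like Timp1 was at 12.4, 3.499 and 1.11 on days 3, 7 and 14, Timp2 at 0.449 on day 7 and Timp3 at 0.188 and 0.489 on days 3 and 7, smooth muscle-like Timp1 at 1.88 and 0.0815, Timp2 at 1.20 (day 7) and Timp3 at 1.02 and 1.61, and macrophage-like Timp1 at 0.126 on day 14. As means over cells, fibroblast-like ratios were 3.27, 1.25 and 0.536 for Timp1, 0.586, 0.432 and 0.656 for Timp2 and 0.662, 0.619 and 0.354 for Timp3. Smooth muscle-like ones were 0.724 and 0.142, 1.76 and 1.49, and 1.72 and 1.49 for these genes, and macrophage-like ones 0.631 and 0.109 for Timp1 and 2.39 for Timp2 on day 14. Without doublet removal the day 7 ratios were 3.18, 0.446 and 0.504 for Timp1, Timp2 and Timp3 in fibroblast-like cells, 1.84, 1.19 and 1.02 in smooth muscle-like cells and 0.939 for macrophage-like Timp2. Scaling to the median ratio gave 0.315 for fibroblast-like Timp2 on day 3 and 1.09 for macrophage-like Timp2 on day 7. Without mixed sub-clusters, fibroblast-like Timp1 was at 5.86 and 1.85 on days 3 and 7, Timp2 at 0.447 and 0.498 and Timp3 at 0.434 and 0.605, and smooth muscle-like Timp1 at 0.318 and 0.275, Timp2 at 1.08 and 1.02 and Timp3 at 1.55 and 1.20 on days 7 and 14. Without shallow sub-clusters, an alternative chosen after seeing the data, fibroblast-like Timp1 was at 12.6, 4.97 and 1.06 and Timp3 at 0.186 (day 3) and 0.400 (day 7). Fibroblast-like ratios of days 3 and 7 kept their direction in 7 of 7 alternatives for Timp1, Timp2 and Timp3. Other ratios did so less often. Fibroblast-like Timp1 on day 14 kept its direction in 5 of 7. On day 7 the counts were 4 of 7 for smooth muscle-like Timp1, 6 of 7 for smooth muscle-like Timp3 and 1 of 5 for macrophage-like Timp2. Thinned shares moved for 10 of 12 values without thinning and 12 of 12 at 2000 UMIs, and resolutions of 0.3 and 0.8 moved all 3 sub-cluster values each. No replicate could be left out, with 1 library a day. No paired analysis was possible because each group has 1 library and the results come from no test. Depth limits the values of Timp4, of day 0 smooth muscle-like cells and of endothelial-like cells.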

Other observations

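On the later days the unnamed cells had Timp1 at 511 CPM on day 3 (94 cells), 98.4 on day 7 (576 cells) and 312 on day 14 (55 cells). Their Timp2 was at 41.7, 81.9 and 184 CPM and their Timp3 at 16.4, 47.2 and 124 on these days. NK cell-like cells had Timp2 at 57.9, 59.8 and 109 CPM on days 3, 7 and 14. The 8 plasmacytoid dendritic-like cells of day 7 had 17 Timp2 UMIs, or 177 CPM (103 to 283), and no Timp3 UMI. B cell-like cells had 4 Timp1, 5 Timp2 and 2 Timp3 UMIs over 44 cells.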
